A study of Mus musculus with 24 samples.

Results

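The 34 genes described here encode mouse proteins of base excision repair, nucleotide excision repair and mismatch repair. They were taken by symbol from a fixed list of these pathways, chosen with earlier results of these data known. All 34 were found among the 55414 genes counted, and all 34 passed the filter on low counts in both models used. By role they were 10 DNA glycosylases, 6 genes of end processing and ligation in base excision repair, 6 genes of damage recognition and 6 of DNA opening and incision in nucleotide excision repair, and 6 mismatch repair genes. Not every gene of these pathways was a member.

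RNA from mouse bone marrow cells was sequenced as 24 bulk libraries, 2 in each of 12 groups. The mice were C57BL6/J and either WT or Srcap mutant; Srcap encodes an ATPase that exchanges histone H2A for the variant H2A.Z. Of the mutation the file headers give only "het" for untreated, doxorubicin and 20-week libraries and "Mut" for 2-week libraries. Hematopoietic stem and progenitor cells (HSPCs, called LSK in the headers) came from untreated mice, from mice 12 hours after intraperitoneal doxorubicin, which poisons topoisomerase II, and from mice 2 weeks after transplantation or 20 weeks after competitive transplantation. Cells labelled B and cells labelled T came from bone marrow 2 weeks after transplantation. Each of these 6 sets had 2 WT and 2 mutant libraries. Ages, the dose of doxorubicin and the animals behind each library were not given in the sources used here, so p-values measure only the spread between libraries, which may be technical.

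Each library held 26369992 to 78432483 counts. Srcap itself ran from 6.09 to 20.3 CPM (counts scaled to the library total) in the 12 WT libraries and from 2.83 to 20.0 in the 12 mutant libraries. Within sets it did not overlap between the genotypes in 3 of the 6, and the direction was not the same: mutants were higher in untreated HSPCs (11.8 and 13.7 CPM against 8.48 and 8.71) and after doxorubicin (10.8 and 11.9 against 8.93 and 10.7), and lower in HSPCs at 2 weeks (11.7 and 13.0 against 13.7 and 14.4). Libraries labelled B carried 8 B cell markers at a summed 7457 to 10113 CPM, against 319 to 904 in HSPCs at 2 weeks. They also carried 6 erythroid markers at a summed 4535 to 12731 CPM, against 880 to 1369 in HSPCs at 2 weeks. The 12 granulocyte markers summed to 3620 to 12906 CPM, against 5483 to 9448. Single genes in each sum went both ways. Of the erythroid markers, Car1 was lower in B libraries, at 28.1 to 51.8 CPM against 526 to 834, as was Klf1. Of the granulocyte markers, Mpo lay at 64.8 to 138 CPM against 2206 to 5257, and Elane was also lower. S100a9 lay at 1546 to 5972 CPM against 288 to 1097, and S100a8 and Retnlg were also higher. Libraries labelled T went against their label: the 8 T cell markers summed to 13.3 to 19.6 CPM, Cd3e lay between 0.09 and 1.56, and the granulocyte markers summed to 135568 to 155894. They are called T-labelled throughout. WT untreated HSPC replicate 1 carried granulocyte markers at 23668 CPM, against 307 to 528 in the other 3 untreated libraries. The headers place untreated and doxorubicin libraries in 1 directory, 20-week libraries in another and all 2-week libraries in a further one. Xist ran from 320.2 to 1537 CPM in the 2-week libraries and reached at most 0.484 in the others, while Ddx3y, on the Y chromosome, reached at most 0.019 in the 2-week libraries and ran from 32.6 to 124 in the others.

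In base excision repair a glycosylase removes a damaged or wrong base, an endonuclease cuts the backbone at the empty site, and a polymerase and a ligase close the gap. Nucleotide excision repair recognises bulky lesions either across the genome or where RNA polymerase stalls, opens the DNA with the helicases of TFIIH and cuts out a stretch that holds the lesion. Mismatch repair recognises wrongly paired bases, mainly behind the replication fork, and removes the new strand around them.

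In untreated WT HSPCs, levels scaled to exon length ran from 1.36 ± 0.13 CPM per kb (SD, n = 2) for Apex2, an endonuclease of empty sites, to 82.5 ± 4.2 for Apex1, the main endonuclease of that kind. Among the glycosylases, Nthl1, which removes oxidised pyrimidines, was lowest at 1.56 ± 0.10 CPM per kb and Neil3, which acts on oxidised bases and on crosslinks in replicating DNA, was highest at 11.1 ± 1.7. In damage recognition, Ercc8, which acts at stalled polymerases, was lowest at 2.06 ± 0.17 CPM per kb and Ddb1, an adaptor of cullin ubiquitin ligases, was highest at 66.7 ± 0.087. Opening and incision ran from the endonuclease Ercc5 at 3.82 ± 0.29 CPM per kb to the TFIIH subunit Gtf2h1 at 17.04 ± 0.40, next to the TFIIH helicase Ercc3 at 17.02 ± 1.6. These last values did not differ beyond their spread. Mismatch repair ran from Pms1, a partner in MutL complexes, at 2.51 ± 0.08 CPM per kb to Msh6, the partner that directs recognition to base mismatches, at 43.9 ± 2.4. Apex1, Ddb1, Msh6 and the Xpc partner Rad23b, at 42.1 ± 2.0 CPM per kb, thus stood above the other 30 members in these libraries.

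**Figure D1:**
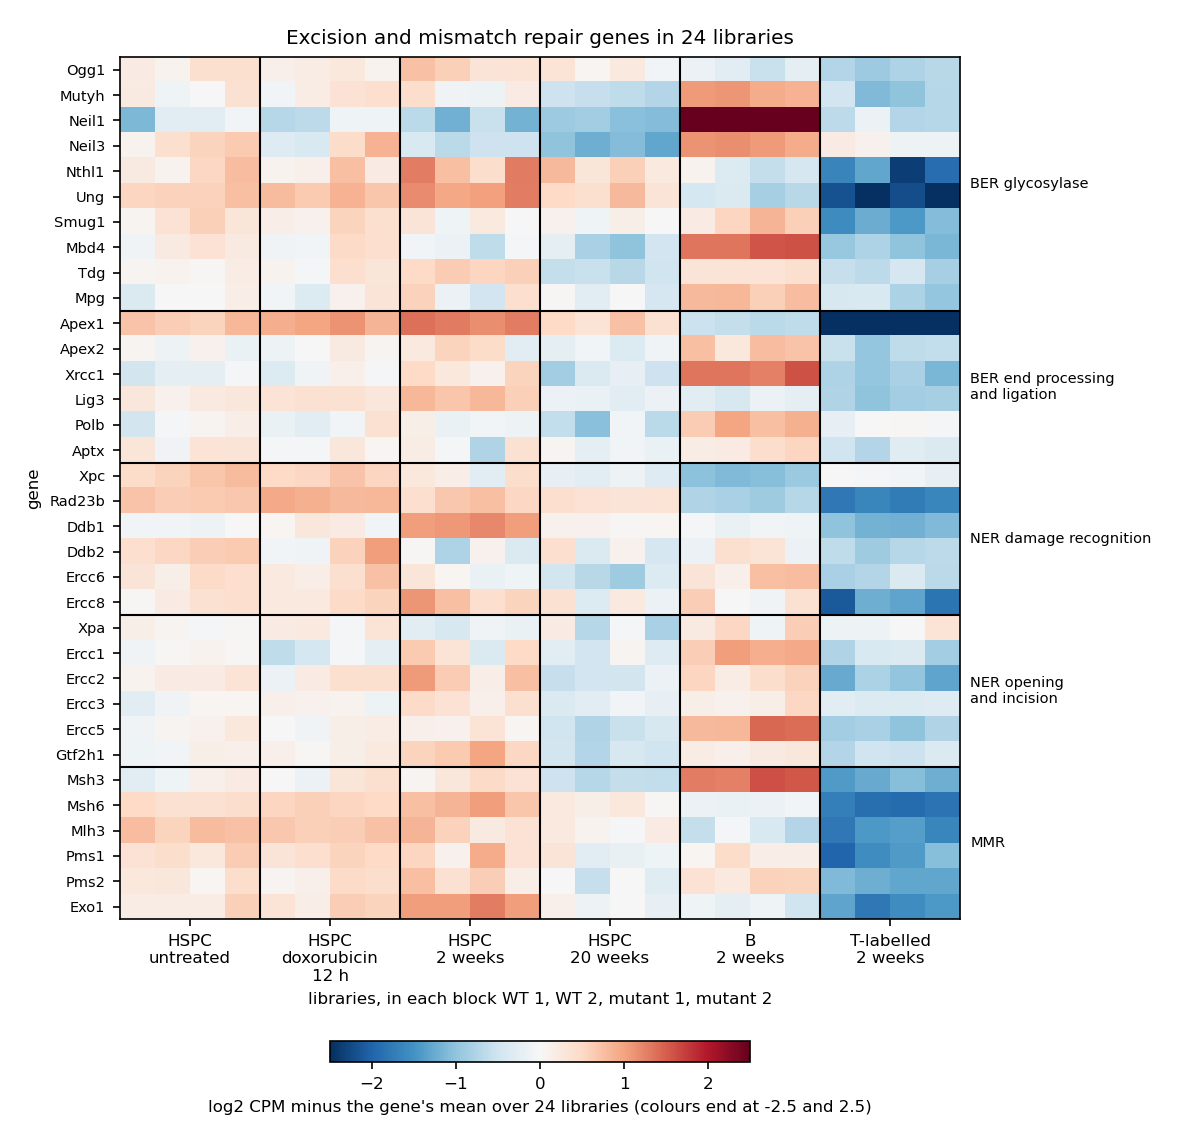
Level of each of the 34 genes (rows, in blocks by role; BER, base excision repair; NER, nucleotide excision repair; MMR, mismatch repair) in each of the 24 libraries (columns), as log2 CPM minus the gene's mean over all libraries. Neil1 was at 193 CPM or more in the 4 B libraries, and Apex1 was at 11.3 CPM or less in the 4 T-labelled libraries.

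The widest differences among the members lay between the cell labels at 2 weeks, where all 12 libraries share a header directory. Here and below, a gene is called where its p in edgeR's quasi-likelihood test, after Benjamini-Hochberg adjustment for every gene in the fit, was under 0.05, and log2 changes are on the scale of TMM-normalised counts, with genotypes averaged unless they are compared. Between B cells and HSPCs, 14 of 34 members were called higher and 12 lower in B cells, against 28.3% higher and 25.5% lower among all 19018 genes tested. The median member change was 0.04, beside 0.06 for all genes. In bulk libraries, fewer cells of a type and less RNA per cell cannot be told apart.

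Neil1 had the largest rise in B cells. It encodes a glycosylase of oxidised bases that can act in replicating DNA, and lies on chromosome 9 at 57050084 to 57055589 (GRCm39). Its CPM was 193 and 212 in WT B cells and 248 and 269.8 in mutant B cells, against 14.9 and 10.4 in WT HSPCs and 16.3 and 10.6 in mutant HSPCs. The lowest B library thus lay far above the highest HSPC library. The log2 change was 4.25 ± 0.18 (SE), 19.1-fold, with adjusted p = 1.31e-09. In the 16 HSPC libraries of all conditions and the 4 T-labelled libraries, Neil1 stayed at 22.9 CPM or less.

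Of the 10 glycosylases, 6 rose in B cells, 3 fell and 1, Tdg, was not called. Mbd4, which removes thymine and uracil mispaired with guanine, was at 92.4, 91.7, 109 and 109 CPM in B cells and at 34.7, 32.7, 23.5 and 35.0 in HSPCs, a log2 rise of 1.80 ± 0.12 (adjusted p = 1.35e-08). Neil3 was at 112, 115, 107 and 97.4 CPM in B cells and at 39.8, 32.4, 36.0 and 35.9 in HSPCs, a rise of 1.71 ± 0.09 (adjusted p = 1.93e-09). The B libraries of both genes lay above all HSPC libraries. Mutyh, which removes adenine paired with oxidised guanine, Mpg, which removes alkylated bases, and Smug1, a uracil glycosylase, rose by 1.001, 0.75 and 0.55. Ung, the main uracil glycosylase of replicating DNA, went the other way, at 21.0, 22.0, 15.9 and 17.5 CPM in B cells against 64.3, 55.7, 58.1 and 69.3 in HSPCs, and fell by 1.58 ± 0.14 (adjusted p = 3.63e-07). Nthl1 fell by 1.15 ± 0.34 (adjusted p = 0.0106), and Ogg1, which removes oxidised guanine, fell by 0.67 ± 0.17 (adjusted p = 0.00342). The call of Nthl1 was lost without WT HSPC replicate 1 at 2 weeks (adjusted p = 0.0624) and without WT B replicate 2 (adjusted p = 0.0509).

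Downstream of the glycosylases, Apex1 had the largest fall in B cells. It lies on chromosome 14 at 51162425 to 51164596. Its CPM was 50.7, 48.6, 46.6 and 47.4 in B cells and 192, 181, 165 and 179.6 in HSPCs, a log2 fall of 1.77 ± 0.08, 3.40-fold, with adjusted p = 5.47e-10. Lig3, a DNA ligase, fell by 0.88. Its scaffold partner Xrcc1 rose from 87.1, 74.0, 66.0 and 90.6 CPM in HSPCs to 156, 156, 148 and 185 in B cells, a change of 1.15 ± 0.12 (adjusted p = 1.56e-06). The gap-filling polymerase Polb rose by 0.99 and Aptx, which removes abortive ligation products, by 0.48. Apex2 had a change of 0.48 that was not called (adjusted p = 0.0660).

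In nucleotide excision repair, the genome-wide recognition genes Xpc and Rad23b fell in B cells by 1.07 and 1.26, and Ddb1 fell by 1.07. Rad23b was at 90.6, 86.9, 82.1 and 92.0 CPM in B cells and at 203, 244, 254 and 216 in HSPCs, with adjusted p = 1.19e-07. Ercc6, the ATPase that acts at stalled polymerases, rose by 0.60. Among the incision genes, Ercc5 rose by 1.09 ± 0.12 (adjusted p = 3.04e-06), the endonuclease subunit Ercc1 by 0.71 and the scaffold Xpa by 0.70, while Gtf2h1 fell by 0.37.

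In mismatch repair, Msh3, the partner that directs recognition to larger loops, was the only called rise among the 6 genes. It was at 105, 104, 132 and 128 CPM in B cells and at 45.9, 52.9, 61.2 and 55.7 in HSPCs, a change of 1.24 ± 0.10 (adjusted p = 1.09e-07). The exonuclease Exo1 fell by 1.22 ± 0.13, Msh6 by 0.85 ± 0.10 and Mlh3, a MutL partner, by 0.80 ± 0.19. Pms1 and Pms2, the latter the usual MutL endonuclease, had changes of -0.16 and 0.06 that were not called. Msh3 and Msh6 thus moved in opposite directions. Of 24 S phase genes, 17 were called lower and 1 higher in B cells with a median of -0.73, and of 18 G2 and M phase genes 11 were called higher and 0 lower with a median of 0.29. These lists and the summed erythroid markers moved with the members' changes. That sum was higher in every B library than in any HSPC library at 2 weeks, while Car1 and Klf1 within it were lower. Single granulocyte markers moved both ways, as given above. The part of these lists and markers in the members' changes was not tested.

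**Figure D2:**
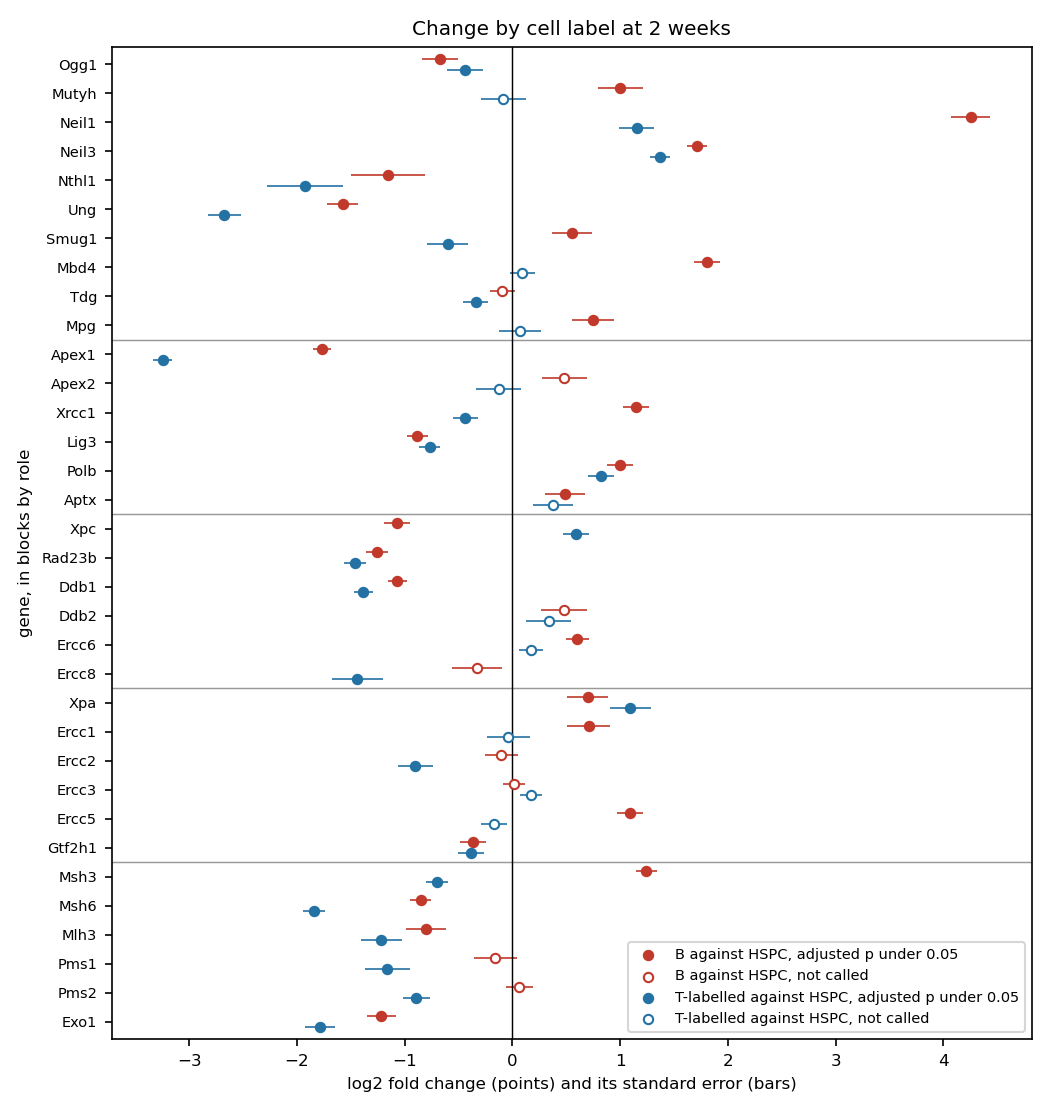
log2 fold change of each gene (points, with standard errors as bars; n = 4 libraries in each set) in B and in T-labelled libraries against HSPCs at 2 weeks; filled points have an adjusted p under 0.05. Neil1 lay at 4.25 in B cells and Apex1 at -3.24 in T-labelled libraries, and all 6 mismatch repair genes lay below 0 in T-labelled libraries.

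In T-labelled libraries, 19 of 34 members were called lower than in HSPCs and 5 higher, against 29.3% lower and 32.6% higher among all genes. The median member change was -0.41, beside 0.03 for all genes. Apex1 was at 11.3, 10.96, 10.3 and 9.87 CPM, and every one of these lay below the lowest HSPC library at 165. Its log2 fall was 3.24 ± 0.09, 9.48-fold, with adjusted p = 2.47e-12. Ung was at 6.30, 4.89, 6.09 and 4.34 CPM, a fall of 2.67 ± 0.15 (adjusted p = 1.16e-09). Nthl1 fell by 1.93 ± 0.35, Rad23b by 1.46 ± 0.10 and Ercc8 by 1.44 ± 0.23.

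All 6 mismatch repair genes were called lower in T-labelled libraries, by 0.70 for Msh3 to 1.84 ± 0.10 for Msh6 (adjusted p = 9.51e-10). Msh6 was at 43.3, 38.3, 37.2 and 39.4 CPM there and at 239, 253, 292 and 229 in HSPCs, without overlap. In CPM 26 of the 34 members lay wholly below HSPCs and 1 wholly above. CPM divides by library totals alone, and with that scaling the median of all genes was -0.79. The share of all genes without overlap was not counted. Exo1 fell by 1.79 ± 0.14 from 79.3, 80.0, 94.3 and 80.0 CPM to 15.5, 11.2, 13.1 and 14.3. Of the 44 further genes that work with these pathways, 34 were called lower and 4 higher, with a median of -0.97. The S phase list had 20 of 24 lower and 0 higher, and the G2 and M phase list 5 of 18 in each direction. The granulocyte markers summed to 5483 to 9448 CPM in HSPCs at 2 weeks and to 135568 or more in T-labelled libraries. Mpo among them was lower in T-labelled libraries, at 505 to 777 CPM against 2206 to 5257. The erythroid markers summed to 2055 to 7306 CPM in T-labelled libraries against 880 to 1369, with Car1 and Klf1 lower. Both sums moved with all of these changes, and their part was not tested.

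The 5 members called higher in T-labelled libraries were Neil3, Neil1, Xpa, Polb and Xpc, with log2 changes of 1.37, 1.15, 1.09, 0.82 and 0.59. Only Neil3 held all 4 T-labelled libraries, at 59.7, 55.4, 46.9 and 47.2 CPM, above all 4 HSPC libraries. The other 4 calls depended on the scaling. TMM factors were 0.666 to 0.733 in T-labelled libraries and 1.22 to 1.29 in HSPCs. With library totals as the only scaling, the median of all genes was -0.79, Polb and Xpc changed sign to -0.02 and -0.25, and Neil1 and Xpa fell short of the threshold at 0.31 and 0.25 (adjusted p = 0.0994 and 0.267). With that scaling 27 members were called lower and 1 higher. Of all 19018 genes tested, 8799 were called lower and 3726 higher with it.

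B cells exceeded T-labelled libraries in 21 of 34 members and lay below them in 1, Xpc, against 27.0% higher and 25.9% lower among all genes. The median member difference was 0.64, beside 0.16 for all genes. Neil1 differed by 3.10 ± 0.17, Msh3 by 1.95 ± 0.10, Mbd4 by 1.71 ± 0.12, Xrcc1 by 1.59 ± 0.12, Apex1 by 1.48 ± 0.08 and Ercc5 by 1.26 ± 0.12, the largest adjusted p of these being 5.68e-07. Xpc was at 93.9, 92.3, 89.7 and 81.9 CPM in T-labelled libraries and at 46.5, 43.8, 44.9 and 49.4 in B cells, a difference of -1.67 ± 0.12 (adjusted p = 2.77e-08). By library totals alone the split was 32 higher and 1 lower, beside a median of 0.86 for all genes. Of all 19018 genes tested, 9098 were called higher and 3100 lower with that scaling.

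**Figure D3:**
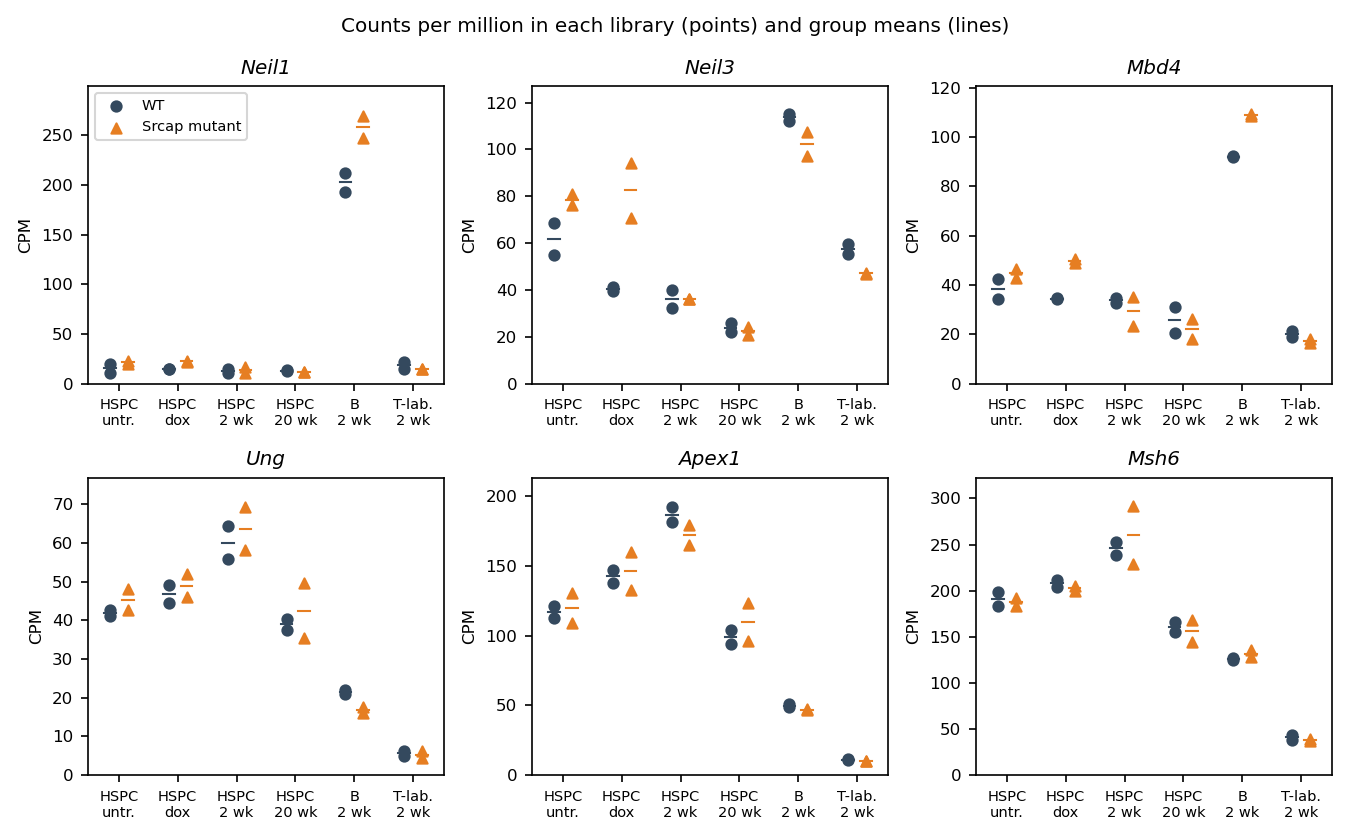
CPM of 6 members in each library (points; lines mark group means, n = 2) by set, with HSPC sets untreated (untr.), 12 hours after doxorubicin (dox), and 2 and 20 weeks (wk) after transplantation, and T-labelled libraries shortened to T-lab. Neil1 lay at 193 to 269.8 CPM in B cells and at 22.9 or below elsewhere, and Apex1 ran from 165 to 192 in HSPCs at 2 weeks down to 9.87 to 11.3 in T-labelled libraries.

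HSPCs 2 weeks after transplantation had 14 members called higher than untreated HSPCs and 3 lower, against 21.2% higher and 24.9% lower among all 19522 genes tested. The median member change was 0.32, beside -0.14 for all genes. These libraries also differ in header directory and in Xist and Ddx3y, as given above, so transplantation, directory and sex cannot be told apart here. When WT untreated replicate 1 was left out because of its granulocyte RNA, 13 members were called higher and 4 lower.

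Ddb1 had the largest rise. It lies on chromosome 19 at 10582691 to 10607183. It was at 427, 428, 408 and 444 CPM in untreated HSPCs and at 927, 953, 1029.8 and 922 at 2 weeks, so the sets lay far apart. The log2 change was 1.25 ± 0.11, 2.39-fold, with adjusted p = 3.83e-08. Exo1 rose from 44.0, 44.1, 43.8 and 58.1 CPM to 79.3, 80.0, 94.3 and 80.0, a change of 0.90 ± 0.11 (adjusted p = 2.93e-06). Gtf2h1 rose from 49.998, 51.7, 59.4 and 59.1 CPM to 79.7, 85.0, 107 and 77.4, a change of 0.76 ± 0.11 (adjusted p = 1.99e-05). For both, every 2-week library lay above every untreated one.

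In base excision repair Xrcc1 rose by 0.70 ± 0.14, Apex1 by 0.68 ± 0.10, Lig3 by 0.61 ± 0.10, Ung by 0.59 ± 0.11 and Tdg, a glycosylase of thymine mispaired with guanine and of oxidised methylcytosine, by 0.56 ± 0.12. Apex1 went from 122, 113, 109 and 131 CPM to 192, 181, 165 and 179.6 (adjusted p = 2.63e-05). Nthl1 was called at 0.66 ± 0.25 (adjusted p = 0.0387), but the call was lost without WT untreated replicate 1 or 2, mutant untreated replicate 1 or 2, WT 2-week replicate 1 or mutant 2-week replicate 2 (adjusted p = 0.0719 to 0.184). The TFIIH helicases Ercc2 and Ercc3 rose by 0.55 and 0.49, Ercc8 by 0.53, Msh6 by 0.51 and Msh3 by 0.40.

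The 3 members that fell at 2 weeks were Neil3, Ddb2 and Xpc. Neil3 lies on chromosome 8 at 54039902 to 54092100. It was at 55.1, 68.4, 76.1 and 81.1 CPM in untreated HSPCs and at 39.8, 32.4, 36.0 and 35.9 at 2 weeks, a log2 fall of 0.87 ± 0.12 (adjusted p = 6.50e-06). Ddb2, the damage sensor that binds lesions with Ddb1 and is regulated by p53 in human cells, was at 23.5, 25.1, 27.0 and 27.6 CPM and at 17.9, 10.4, 19.0 and 13.8, a fall of 0.67 ± 0.19 (adjusted p = 0.00601). The partners Ddb1 and Ddb2 thus moved in opposite directions, with no overlap between the sets for either. Xpc fell by 0.37 ± 0.12 (adjusted p = 0.0164), a call lost without WT untreated replicate 2, mutant untreated replicate 2, WT 2-week replicate 2 or mutant 2-week replicate 1 (adjusted p = 0.0503 to 0.0614).

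Genes of S phase moved with these rises. Of 24 S phase genes 23 were called higher and 1, Ccne2, lower, with a median of 0.99, and of 18 G2 and M phase genes 16 were called higher and 0 lower, with a median of 0.61. Ccne1, a cyclin of S phase entry, rose by 2.51 and Cdt1, a replication licensing factor, by 1.48. Of the 44 further repair genes 27 were called higher and 7 lower, with a median of 0.48; the flap endonuclease Fen1 rose by 1.48 and the replicative polymerase subunit Pold2 by 1.25, while the glycosylase Neil2 fell by 2.03 and Uvssa, which acts at stalled polymerases, by 0.92. Of 18 p53 targets 6 were called higher and 5 lower. Markers of cell types moved as well: the 8 HSPC markers summed to 1147 to 1603 CPM at 2 weeks and 2766 to 3499 in untreated libraries. Gata2 among them went the other way, at 89.4 to 159 CPM against 39.2 to 61.1. The erythroid markers summed to 880 to 1369 CPM against 25.6 to 162. The plasma cell markers summed to 548 to 1148 CPM against 3439 to 6808, and the B cell markers to 319 to 904 against 875 to 1334. The granulocyte markers summed to 5483 to 9448 CPM at 2 weeks, against 307 to 528 in untreated libraries other than WT replicate 1. The part of these genes in the members' changes was not tested.

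**Figure D4:**
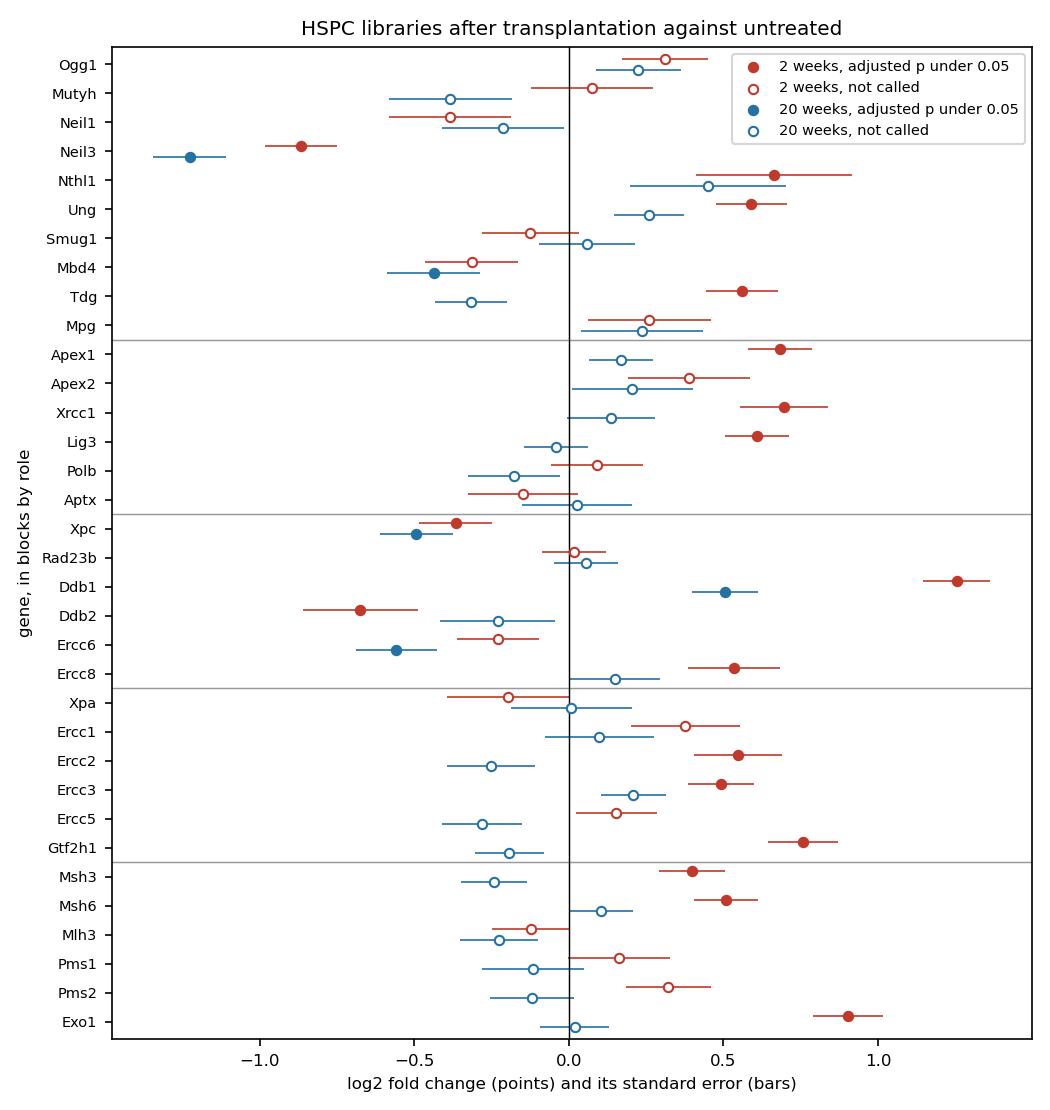
log2 fold change of each gene (points, with standard errors as bars; n = 4 libraries in each set) in HSPCs 2 weeks and 20 weeks after transplantation against untreated HSPCs, which both comparisons share; filled points have an adjusted p under 0.05. Ddb1 lay at 1.25 at 2 weeks and 0.50 at 20 weeks, and Neil3 at -0.87 and -1.23.

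At 20 weeks after competitive transplantation, 1 member was called higher than in untreated HSPCs and 4 lower, against 13.1% higher and 10.6% lower among all genes. The median member change was -0.02, beside 0.02 for all genes. Neil3 fell by 1.23 ± 0.12 (adjusted p = 2.27e-06), to 25.8, 22.0, 24.3 and 20.8 CPM, below all untreated libraries. Ercc6 fell by 0.56 ± 0.13 (adjusted p = 0.00491), from 52.99, 46.7, 58.7 and 56.2 CPM to 30.8, 26.1, 22.7 and 33.5. Xpc fell by 0.49 ± 0.12 (adjusted p = 0.00526), from 129.8, 139, 152 and 163 CPM to 81.6, 78.8, 86.2 and 75.3. In CPM no 20-week library of these genes reached the lowest untreated one. The same held for 16 of the 34 members, while 1 lay wholly above untreated. CPM divides by library totals alone, and with that scaling the median of all genes was -0.33. The share of all genes without overlap was not counted.

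Mbd4 fell by 0.44 ± 0.15 at 20 weeks (adjusted p = 0.0421), a call lost when WT untreated replicate 2, either mutant untreated library, WT 20-week replicate 2 or mutant 20-week replicate 1 was left out (adjusted p = 0.0738 to 0.186). Ddb1 rose by 0.50 ± 0.11 (adjusted p = 0.00217), at 482, 483, 459 and 459.6 CPM. The 4 plasma cell markers summed to 11008 to 16668 CPM at 20 weeks, against 3439 to 6808 in untreated HSPCs, and TMM factors were 0.780 to 0.895 against 1.07 to 1.10; their part was not tested. With library totals as the only scaling, the median of all genes was -0.33, and 0 members were called higher and 19 lower. Of all 19522 genes tested, 844 were called higher and 5542 lower with it. Ddb1 then had a change of 0.14 (adjusted p = 0.291). Of the cell cycle lists at 20 weeks, 5 of 24 S phase genes were called higher and 1 lower, and 0 of 18 G2 and M phase genes higher and 7 lower. Header directory cannot be told apart from the 20-week condition.

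RefSeq promoter windows (GRCm38.p6) were at hand for 28 of the 34 genes, and 2 sets of short words were looked for in the 250 bases before each start, on both strands. The E-box CACGTG was present in 6 of these 28 genes, in 6 of their 31 windows, against 6.02% of all 32851 windows. The E2F words TTTCCCGC, TTTGGCGC and TTCCCGCC, which can overlap each other, were present in Gtf2h1 and Msh3, in 2 of the 31 windows, against 2.69% of all windows. All 6 E-box genes are shown. At 2 weeks 5 of these 6 were called higher, and so were 7 of the 22 whose windows lacked the word. Of all genes tested, 21.2% were called higher there. Ercc6 was not called, with a change of -0.23. Whether the word goes with the rise was not tested. Each line gives 30 bases of the plus strand, 5′ to 3′, with the E-box in capitals.
Apex1: gcgctccagaacCACGTGggggcggagccc
Tdg: cctggccagcatCACGTGatggcgaggccg
Lig3: agaacagcgaccCACGTGgcgaccggaggg
Gtf2h1: cgcggtggtggtCACGTGctccggaggccc
Ercc6: ctttggtcaacgCACGTGgcaaacccttgc
Ercc8: atggtccgtgccCACGTGctccctcacctc
These stretches lie at chr14:50924913-50924942, chr10:82629798-82629827, chr11:82781076-82781105, chr7:46796056-46796085, chr14:32513413-32513442 and chr13:108158489-108158518, in the order shown. The first letter of the E-box lay 24 bases before the start in Apex1, 28 in Tdg, 21 in Lig3, 26 in Gtf2h1, 96 in Ercc6 and 237 in Ercc8. In the GENCODE M21 annotation the first 9 bases of the Gtf2h1 stretch are exon of Hps5 and all 30 of the Ercc8 stretch are exon of Ndufaf2, both on the other strand. A matching word is a description of the sequence and not a site of binding.

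Doxorubicin left no member called at 12 hours. Between doxorubicin and untreated HSPCs, genotypes averaged, DESeq2 called 0 of 34 members and 95 genes in all. In edgeR 0 members passed, against 0.0154% of all genes called. Before adjustment 3 had p under 0.05, against 5.96% of all genes. The smallest p belonged to Apex1, with a change of 0.30 ± 0.10 (adjusted p = 0.696), Neil3, with -0.25 ± 0.12 (adjusted p = 0.836), and Rad23b, with 0.22 ± 0.10 (adjusted p = 0.837). Apex1 was at 138, 147, 160.3 and 133 CPM after doxorubicin, above all 4 untreated libraries. Rad23b, at 291, 280.5, 268 and 270.1 against 249, 233, 240.0 and 242, also did not overlap. With Msh6, 3 of the 34 members lay wholly above untreated in CPM and 0 wholly below. The share of all genes without overlap was not counted. None of the 18 p53 targets was called, and their median was 0.49, beside 0.00 for all genes.

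The response to doxorubicin was also compared between the genotypes. For that difference DESeq2 called 0 of 34 members and 5 genes in all. The edgeR test of it called 0 members, against 0.0% of all genes. Before adjustment 1 member had p under 0.05, against 2.82% of all genes. Neil3 had the smallest p, with a difference of 0.64 ± 0.23 (adjusted p = 1).

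Within doxorubicin-treated HSPCs, mutant against WT, 0 of 34 members were called by edgeR, against 0.0154% of all genes. Before adjustment 4 had p under 0.05, all higher in mutants, against 9.79% of all genes in either direction and 5.57% higher. Neil3 came closest. It was at 41.4 and 39.4 CPM in WT and at 70.7 and 94.4 in mutant libraries, so both mutants lay well above both WT libraries. Its log2 difference was 0.97 ± 0.16 with adjusted p = 0.0594 in edgeR. DESeq2 gave it adjusted p = 5.09e-05, the fit without a count filter 1.68e-04 and the fit of all 24 libraries 0.00677; over all alternatives run the adjusted p reached 0.782. Ddb2 followed, at 16.8 and 16.6 CPM in WT and 26.4 and 36.5 in mutant libraries, a difference of 0.85 ± 0.26 (adjusted p = 0.277), and passed only in 1 of the alternatives run, the fit without a count filter (adjusted p = 0.0381, the others up to 1).

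The remaining members at an unadjusted p under 0.05 after doxorubicin were Msh3 and Mbd4. Msh3 was at 44.1 and 39.4 CPM in WT and at 53.9 and 57.2 in mutants, a difference of 0.35 ± 0.15 (adjusted p = 0.460). Mbd4 was at 34.4 and 34.5 CPM in WT and at 50.7 and 48.9 in mutants, a difference of 0.47 ± 0.21 (adjusted p = 0.491). In CPM, 24 members had both mutant libraries above both WT libraries after doxorubicin, 2 had both below and 8 overlapped; of all genes tested 29.0% had both above and 17.5% both below. The G2 and M phase genes summed to 4130 to 4422 CPM in these mutants and 3334 to 3703 in WT, and the HSPC markers to 2468 to 2626 against 3341 to 3516. The 18 p53 targets summed to 931 to 980 CPM in mutants and 789 to 798 in WT, with 15 positive, none called and a median log2 difference of 0.41. The B cell markers summed to 1381 to 1419 CPM against 909 to 1156, and the 4 plasma cell markers to 2421 to 3063 against 4800 to 5665. The part of these lists in the members' differences was not tested.

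In untreated HSPCs DESeq2 called 0 members between the genotypes and 148 genes in all. In edgeR 0 members were called, against 0.0% of all genes. Before adjustment 0 had p under 0.05, against 4.82%. The difference was positive in 28 of 34, with a median of 0.17 beside 0.02 for all genes. It was also positive in 23 of 24 S phase genes, median 0.13, and in 18 of 18 G2 and M phase genes, median 0.27. None of these was called, and their part in the members' differences was not tested. In CPM 18 members had both mutant libraries above both WT libraries while 1, Xpa, had both below, against 24.2% and 15.2% of all genes. The smallest p belonged to Msh3 (0.31 ± 0.15), Neil3 (0.32 ± 0.16) and Neil1 (0.46 ± 0.28), each with adjusted p = 1; with 1 library left out Neil3 ran from 0.18 to 0.49. Neil1 was at 10.9 and 19.8 CPM in WT and 20.0 and 22.9 in mutants, and the low WT value came from the library with granulocyte RNA. Without that library the Neil1 difference was 0.095, and 29 of 34 members were positive with a median of 0.10 and 0 called.

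In HSPCs 2 weeks after transplantation DESeq2 called 0 members and 259 genes in all. In edgeR 0 members were called, against 0.138% of all genes, and 16 of 34 were positive. Before adjustment 1 had p under 0.05, against 8.76% of all genes. The smallest p belonged to Mlh3 (-0.40 ± 0.18, adjusted p = 0.542), Ercc8 (-0.42 ± 0.21, adjusted p = 0.592) and Msh3 (0.27 ± 0.15, adjusted p = 0.622). With 1 library left out, Ercc8 ran from -0.56 to -0.27 and Msh3 from 0.13 to 0.41. At 20 weeks DESeq2 called 0 members and 18 genes in all. In edgeR 0 members were called, against 0.00512% of all genes, and 11 of 34 were positive. Before adjustment 1 had p under 0.05, against 3.8% of all genes. Polb, with 0.44 ± 0.21, Mbd4, with -0.23 ± 0.21, and Ercc2, with 0.20 ± 0.20, had the smallest p, each with adjusted p = 1; with 1 library left out Polb ran from 0.18 to 0.66, and Mbd4 and Ercc2 changed sign. Over the mean of the 4 HSPC conditions 0 were called in edgeR, against 0.133% of all genes, and 3 had p under 0.05 before adjustment, against 9.88%. Neil3 came closest there at 0.30 ± 0.08 (adjusted p = 0.168, and 0.0286 in DESeq2 to 0.474 over all alternatives run), ahead of Msh3 at 0.23 ± 0.08 (adjusted p = 0.286) and Polb at 0.26 ± 0.11 (adjusted p = 0.406).

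In B cells DESeq2 called 0 members between the genotypes and 194 genes in all. In edgeR 0 members were called, against 0.0684% of all genes. Before adjustment 3 had p under 0.05, against 8.04% of all genes. Ercc5 was at 39.4 and 39.9 CPM in WT and at 60.9 and 59.3 in mutant B cells, a difference of 0.60 ± 0.17 (adjusted p = 0.282). Ercc6 was at 53.1 and 46.2 CPM in WT and at 71.3 and 72.4 in mutants, a difference of 0.53 ± 0.15 (adjusted p = 0.309). Msh3 followed, with 0.31 ± 0.14 (adjusted p = 0.604). These 3 genes were picked by their p in this comparison, and in each both mutant libraries lay above both WT libraries in CPM. In all, 11 members had both mutants above and 6 had both below. Of all genes 19.6% had both mutants above and 19.9% both below. In T-labelled libraries DESeq2 called 0 members and 23 genes in all. In edgeR 0 members were called, against 0.00526% of all genes. Before adjustment 3 had p under 0.05, against 4.85%. Ercc6 (0.39 ± 0.15), Msh3 (0.33 ± 0.14) and Pms1 (0.64 ± 0.29) had the smallest p there, each with adjusted p = 0.905; with 1 library left out they ran from 0.21 to 0.55, 0.25 to 0.42 and 0.44 to 0.88.

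Msh3 was the member whose mutant libraries most often lay above WT, without overlap in 5 of the 6 sets, which held in 5 or more sets for 0.191% of the 17801 genes tested in both fits (34 genes). It is singled out here after its values were seen. It lies on chromosome 13 at 92348380 to 92491511. Its CPM in WT and mutant libraries was 36.5, 40.7 and 47.5, 49.98 in untreated HSPCs, and 45.9, 52.9 and 61.2, 55.7 in HSPCs at 2 weeks. It was 105, 104 and 132, 128 in B cells, and 16.2, 18.2 and 20.9, 18.8 in T-labelled libraries. The exception was HSPCs at 20 weeks, with 30.4, 26.6 in WT and 29.0, 28.3 in mutants, where the difference was -0.02 ± 0.15. In none of the 6 sets did Msh3 pass the adjusted threshold in edgeR or DESeq2.

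Whether the genotype difference itself changed between sets was tested in 9 comparisons of differences, which called 0 of 34 members in edgeR, with 0 to 5 members in each at p under 0.05 before adjustment, against 2.82% to 10.9% of all genes; of these 9, DESeq2 was run on the response to doxorubicin. Neil3 gave the smallest adjusted p, for HSPCs at 2 weeks against doxorubicin, with a difference of -0.94 ± 0.23 (adjusted p = 0.182). Ercc6 had the smallest p between B cells and HSPCs at 2 weeks, with 0.87 ± 0.22 (adjusted p = 0.387). With 2 libraries in each group the standard error of a member's log2 difference between genotypes was 0.114 to 0.493 across the 6 sets.

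**Figure D5:**
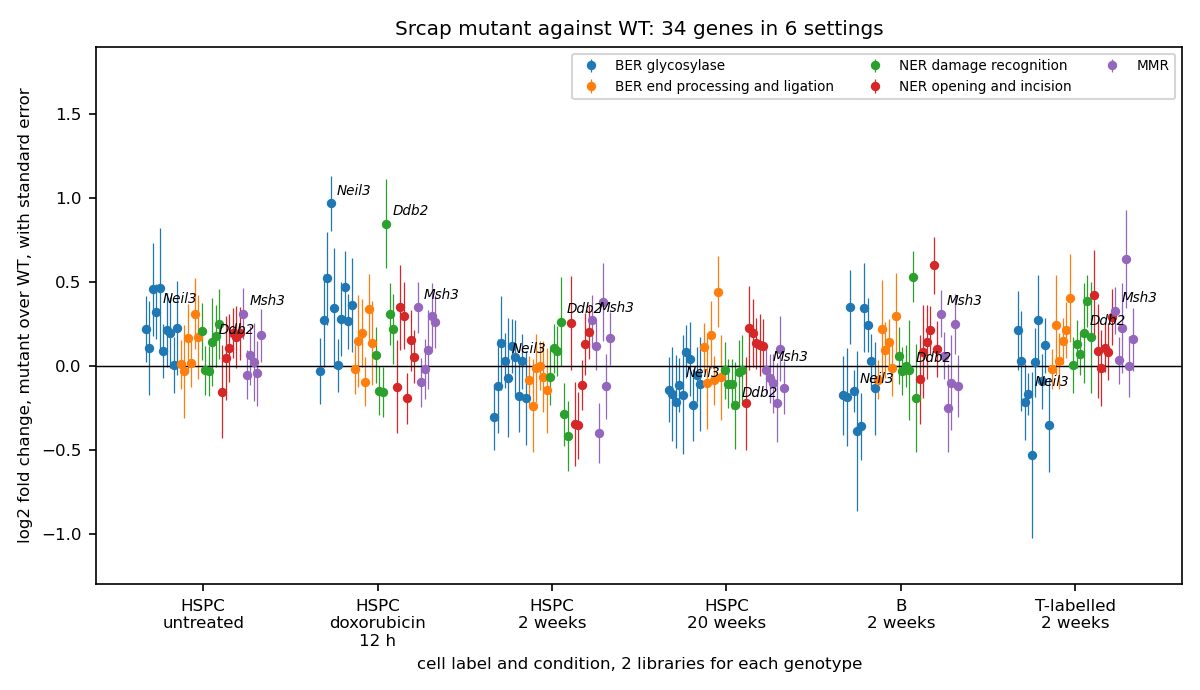
log2 fold change of mutant over WT libraries (points, with standard errors as bars; n = 2 libraries for each genotype) for the 34 genes in 6 sets, coloured by role (BER, base excision repair; NER, nucleotide excision repair; MMR, mismatch repair) and in the same gene order in each set. Neil3 lay at 0.97 and Ddb2 at 0.85 after doxorubicin, and none of the 34 genes in any set passed an adjusted p of 0.05 in edgeR.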

How the data were processed

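The deposited values are raw counts of read pairs per gene. Per the file headers, featureCounts 2.0.1 made them with the GENCODE M28 annotation, counting reads on the reverse strand. Per the submitters' processing notes, FastQC, STAR and Subread were used and the builds were mm10 and mm39. The labels' extraction protocol names sorted HSPCs for all libraries, those labelled B and T included. Counting by strand keeps opposite-strand genes apart; on the same strand, Pms2 shares 5.90% of its exon bases with other genes and Ercc2 0.264%, so their counts are less certain.

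HSPC libraries (16) and 2-week libraries (12) had separate fits in edgeR 4.0.16 (R 4.3.3): filterByExpr (minimum count 10, minimum total 15), TMM scaling, robust quasi-likelihood with a mean for each group, and Benjamini-Hochberg adjustment. CPM divides by the total count of a library, and CPM per kb also by exon length. The code was tested on simulated data. For each comparison the text names up to 6 called members in each direction by size of change, or the 3 smallest p where none was called; others complete a role and were added after their values were seen. Members and lists were chosen with earlier results of these data known. Each fit was repeated with DESeq2 1.42.0, with RLE factors, unfiltered, with a replicate block, with all 24 libraries together and with each library left out. Scaling by library totals alone was added after the data were seen.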

Additional observations from a re-analysis of the deposited data

How the results depend on the processing

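Between the genotypes after doxorubicin, 1 member was called by DESeq2 and 1 in the fit of all 24 libraries, Neil3 in both, and 2 without a count filter, Neil3 and Ddb2, against 0 in edgeR. Over the mean of the 4 HSPC conditions DESeq2 called 1, Neil3. By library totals alone 19 members were called at 20 weeks against untreated, where 5 were called with TMM. Over all 19522 genes tested, 6386 were called by library totals and 4612 with TMM. The fit of all 24 libraries called 12 members higher and 5 lower at 2 weeks. Of its 21152 genes, 3640 were called higher and 5128 lower there. Leaving out 1 library at a time gave 15 to 20 called members at 2 weeks, 4 to 7 at 20 weeks, 23 to 26 between B cells and HSPCs, 21 to 25 between T-labelled libraries and HSPCs, 21 to 23 between B and T-labelled libraries, and 0 in each genotype and doxorubicin comparison. By single gene, Mbd4 between genotypes at 20 weeks had 0.0527 without mutant replicate 1 and -0.59 without mutant replicate 2, and Ercc2 had -0.0275 without mutant replicate 2 and 0.39 without mutant replicate 1. By library totals Polb had -0.0162 and Xpc -0.25 in T-labelled libraries against HSPCs. The cause of these changes of sign was not tested.

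Counts over all genes varied more than those of the members. Between genotypes, edgeR, DESeq2 and the fit without a count filter called 0, 148 and 467 genes in untreated HSPCs, 3, 265 and 474 after doxorubicin, 27, 259 and 399 at 2 weeks, 1, 18 and 149 at 20 weeks, 26, 324 and 618 over the mean, 13, 194 and 506 in B cells and 1, 23 and 150 in T-labelled libraries. For doxorubicin against untreated they called 3, 95 and 421, and for the difference in response 0, 5 and 337. The fit of all 24 libraries called 1 gene in untreated HSPCs, 25 after doxorubicin, 5 at 2 weeks, 14 over the mean, 80 in B cells and 8 in T-labelled libraries. Leaving out 1 library at a time, edgeR called 0 to 250 genes between genotypes in untreated HSPCs (highest without WT replicate 2), 0 to 2 after doxorubicin, 11 to 672 at 2 weeks (without mutant replicate 2), 0 to 302 at 20 weeks (without mutant replicate 2), 3 to 316 over the mean (without mutant 2-week replicate 2), 2 to 151 in B cells (without mutant replicate 1) and 0 to 2 in T-labelled libraries. It called 1 to 139 for doxorubicin against untreated and 0 to 89 for the difference in response, both highest without WT untreated replicate 2. The shares of all genes given beside the members' counts move with these.

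Replicate numbers are shared between groups, but the labels name no pairs and correlations of same-numbered deviations ran from -0.157 to 0.171, so the libraries share only a number. With the number as a replicate block, 17 members were called at 2 weeks, 5 at 20 weeks, 26 between B cells and HSPCs, 24 between T-labelled libraries and HSPCs, 22 between B and T-labelled libraries and 0 in each genotype and doxorubicin comparison. Over all genes the block gave 16 calls between genotypes at 2 weeks, 13 over the mean and 2 at 20 weeks.

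With 2 libraries in each group, a genotype difference near the standard errors given in the report was not detectable. Differences well above their standard errors also went uncalled by edgeR, such as that of Neil3 after doxorubicin. The lack of a call therefore does not show that a difference is absent. Conditions that differ in header directory cannot be told apart from the directory.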
